A study of Mus musculus with 30 samples.

Results

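The transcripts of 10 genes of the pluripotency network were followed through 24 poly(A) RNA-seq libraries of mouse neural progenitor cells (NPCs). Members were the rows of the deposited count table with the symbols Pou5f1, Nanog, Zfp42, Esrrb, Tfcp2l1, Prdm14, Utf1, Sall4, Lin28a and Zscan10, that is 10 of 25400 genes in the table and 10 of the 16582 genes that passed the filter on low counts. The NPCs had been differentiated in vitro from embryonic stem cells (ESCs, line HA36CB1, 129×C57BL/6) of 8 lines with 3 libraries each: wild type (WT), an Mbd3 knock-out (Mbd3 KO), and 6 lines in which a construct was expressed in Mbd3 KO cells. The constructs were MBD3a (full length), MBD3ΔMBD (without the methyl-CpG-binding domain, MBD), MBD2a (full length), MBD2aΔGR (without the glycine-arginine stretch), MBD2aR181C (a point mutation in the MBD domain, named here as in the labels) and MBD2t (without the C-terminal coiled coil). All 6 were integrated at one defined genomic site under the CAG promoter and shared the Mbd3 deletion with the Mbd3 KO line. Per the study, the libraries of a line came from separately derived clones, except that the 3 MBD2t libraries were repeats of 1 clone. The p-values given here come from a joint fit that pools the spread of each gene over all 8 lines. That spread is mostly between clones, but also takes in the spread between the MBD2t repeats. MBD2t stands for 1 clone, so its p-values do not measure the spread between clones of that line. No ESC library was analysed here, so no level can be read as a share of the ESC level.

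Pluripotent cells hold a mutually reinforcing set of transcription factors around Pou5f1 (OCT4), Nanog and Sox2, and naive ESCs add Zfp42 (REX1), Esrrb, Tfcp2l1 and Prdm14. On the way to neural progenitors this network is shut down, while Sox2 stays on as a neural stem cell factor. MBD3 and MBD2 are alternative subunits of the NuRD complex, a chromatin remodelling and deacetylase complex known to dampen pluripotency genes when ESCs leave the pluripotent state.

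Libraries held between 27993858 and 49392806 counts (median 36797095), so that 3 counts corresponded to 0.0607 to 0.115 CPM (counts scaled to a fixed library size). All CPM values were scaled by TMM factors, and libraries are numbered 1 to 3 within a line in the order of the deposited columns, as names only. Mbd3 followed the labels: it was at 149 to 157 CPM in WT, 34.2 to 73.8 in Mbd3 KO, 168 to 198 in MBD3a and 423 to 496 in MBD3ΔMBD. Mbd2 was at 64.2 to 70.9 CPM in Mbd3 KO and at 280 to 700.2, 253 to 325 and 335 to 356 CPM in MBD2aΔGR, MBD2aR181C and MBD2t. In the libraries labelled MBD2a it was at 67.0 to 87.2 CPM and overlapped the Mbd3 KO libraries, so the Mbd2 transcript did not follow that label, and MBD2a below names these libraries by their label alone. The NPC label was checked against a list of neural progenitor and neuron genes, 24 of which were in the table. Their summed level was 4202 to 6987 CPM in WT but 416 to 750 CPM in Mbd3 KO, 392 to 721 in MBD2a and 582 to 679 in MBD2t, so no library of these last 3 lines reached the WT level of the neural program. No gene of that list was below the 3-count level in every library of a line. Fabp7, a radial glia fatty acid binding protein, was at 0.287 to 0.380 CPM in Mbd3 KO against 35.7 to 65.7 CPM in WT.

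The members lie on 8 chromosomes of NCBIM37 (mm9). Pou5f1 is at chr17:35642982-35647721 and Zscan10 at chr17:23737823-23747986, both on the plus strand. Nanog (chr6:122657507-122664651), Esrrb (chr12:87702067-87862578), Tfcp2l1 (chr1:120524522-120581744) and Utf1 (chr7:147129688-147131011) are also on the plus strand. Zfp42 (chr8:44380422-44392363), Prdm14 (chr1:13103538-13117244), Sall4 (chr2:168573832-168593443) and Lin28a (chr4:133559245-133574756) are on the minus strand. Exons of Sall4 overlap those of Gm14261, and exons of Lin28a those of Gm13061, on the opposite strand. The library kit kept the strand, but the strand setting of the counting is not given in the sources used here, so reads of these pairs could not be assigned with certainty.

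Because the members moved together, their start-site regions were read from RefSeq (GRCm38.p6, 250 bases before to 50 bases after each start site) and 4 of them are shown. RefSeq windows matched 8 of the 10 members, with 11 start sites, and Prdm14 and Sall4 had no match. Capitals mark, on either strand, the Oct-Sox composite (TTTGCAT, then any base, then ACAATG), the octamer ATTTGCAT and the GC box GGGCGG. The composite holds most of the octamer, and its letters come from textbook knowledge that includes the Nanog element itself. The Nanog window is chr6:122707239-122707538 (plus strand), that of Zfp42 chr8:43306960-43307259 (minus), that of Utf1 chr7:139943606-139943905 (plus) and that of Pou5f1 chr17:35505782-35506081 (plus).
Nanog: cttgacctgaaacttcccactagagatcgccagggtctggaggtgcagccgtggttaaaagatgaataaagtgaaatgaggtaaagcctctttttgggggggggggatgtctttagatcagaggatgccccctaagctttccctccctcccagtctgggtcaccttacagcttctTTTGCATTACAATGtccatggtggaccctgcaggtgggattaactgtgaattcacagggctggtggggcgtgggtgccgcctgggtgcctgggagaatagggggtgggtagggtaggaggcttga
Zfp42: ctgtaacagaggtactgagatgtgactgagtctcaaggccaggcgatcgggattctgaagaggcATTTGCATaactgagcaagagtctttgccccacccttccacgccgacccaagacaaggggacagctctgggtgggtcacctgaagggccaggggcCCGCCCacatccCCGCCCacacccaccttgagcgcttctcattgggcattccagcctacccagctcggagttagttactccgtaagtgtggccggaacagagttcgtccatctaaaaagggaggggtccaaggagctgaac
Utf1: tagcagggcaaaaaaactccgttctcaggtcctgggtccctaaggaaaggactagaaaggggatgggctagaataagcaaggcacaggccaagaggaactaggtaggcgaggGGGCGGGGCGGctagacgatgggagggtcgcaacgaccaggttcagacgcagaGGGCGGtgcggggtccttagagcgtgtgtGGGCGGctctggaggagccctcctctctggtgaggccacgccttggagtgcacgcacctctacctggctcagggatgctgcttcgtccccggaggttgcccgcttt
Pou5f1: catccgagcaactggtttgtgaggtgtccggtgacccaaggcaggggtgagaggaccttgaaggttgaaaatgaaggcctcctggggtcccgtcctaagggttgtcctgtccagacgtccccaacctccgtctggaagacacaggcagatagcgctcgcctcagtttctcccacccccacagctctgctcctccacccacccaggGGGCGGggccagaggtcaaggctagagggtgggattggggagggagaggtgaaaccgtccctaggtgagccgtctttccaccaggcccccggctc

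The composite is the joint binding site of OCT4 and SOX2. It was at -75 to -62 from the first Nanog start site and at -151 to -138 from the second. These windows overlap and hold the same element. They were the only 2 of 32851 RefSeq windows that held it (0.00609%). That share is no test, because the letters were drawn from knowledge of this element. Zfp42 held an octamer, the OCT4 part of that site, at -186 to -179, as did 1.74% of all windows. GC boxes, bound by SP/KLF factors, were in the Pou5f1, Zfp42, Utf1 and Lin28a windows and in 35.7% of all windows. Utf1 held 4 of them, the first pair sharing a base. The Esrrb site TCAAGGTCA was in none of the 11 windows and in 0.423% of all windows. Windows differed in CpG content, the sequence that MBD2 binds when methylated. Tfcp2l1 had 21 CpGs, Utf1 17, Zfp42 11 and Lin28a 10, whereas both Nanog windows and that of Zscan10 had 4 (median of all windows 7, quartiles 3 and 20). These are letters in a window and no binding was measured there.

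Pou5f1 encodes the POU factor OCT4 that is required for pluripotency. In WT it was at 5.26, 7.15 and 38.7 CPM in libraries 1 to 3, and in Mbd3 KO at 176, 95.3 and 55.0 CPM. Every Mbd3 KO library was above every WT library, but WT library 3 stood far closer to the knock-out than its 2 sister libraries did. In MBD3a it was at 10.2, 28.8 and 9.86 CPM and in MBD3ΔMBD at 10.5, 4.63 and 4.09 CPM, within or below the WT range. The MBD2a libraries were at 72.6, 112 and 121 CPM and those of MBD2t at 114, 117 and 96.3 CPM, all above WT library 3. MBD2aΔGR, at 14.8, 39.3 and 50.2 CPM, and MBD2aR181C, at 5.97, 71.1 and 30.9 CPM, lay in between and overlapped WT. Ordered by mean, Pou5f1 was highest in MBD2t (109 ± 11.1 CPM, SD of 3 repeats of 1 clone), then Mbd3 KO (109 ± 61.7, SD, n = 3), MBD2a (102 ± 25.8), MBD2aR181C (36.0 ± 32.9), MBD2aΔGR (34.8 ± 18.1), WT (17.03 ± 18.8), MBD3a (16.3 ± 10.8) and MBD3ΔMBD (6.42 ± 3.58). Only the step from MBD2a to MBD2aR181C separated neighbouring lines without overlap between libraries.

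Nanog, a homeodomain factor that stabilises the pluripotent state, had the same order of lines but a wider spread. It was at 0.805, 3.33 and 30.7 CPM in WT and at 164, 84.3 and 40.3 CPM in Mbd3 KO. The lowest Mbd3 KO library was thus little above the highest WT library. In MBD3a it was at 0.848, 24.95 and 5.10 CPM and in MBD3ΔMBD at 4.78, 0.978 and 0.998 CPM. In MBD2a it was at 46.1, 94.7 and 91.6 CPM and in MBD2t at 115, 108 and 88.2 CPM, again above all WT libraries. MBD2aΔGR had 6.11, 27.6 and 29.0 CPM and MBD2aR181C 1.42, 58.7 and 20.5 CPM. One MBD2aR181C library was thus near the WT libraries 1 and 2 and another within the Mbd3 KO range.

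**Figure D1:**
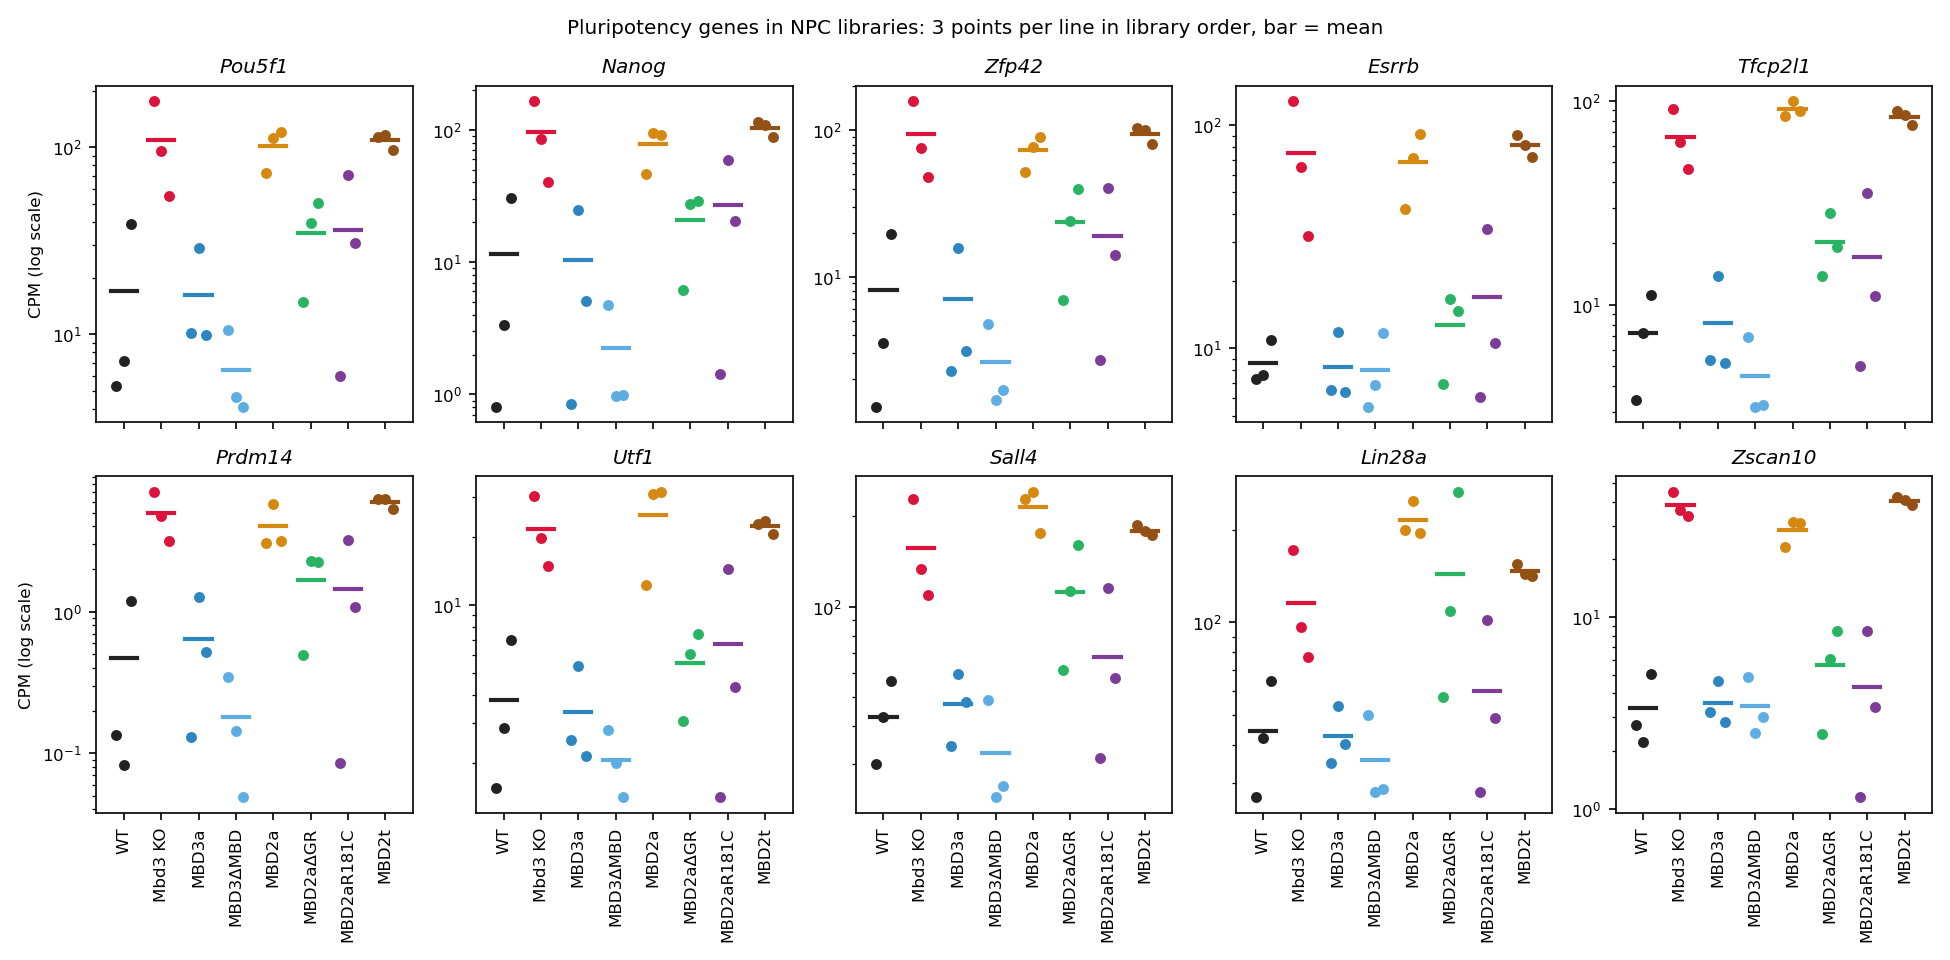
CPM of each gene (log axis) in the 3 libraries of each of the 8 lines, drawn as points in library order with a bar at the mean. In all 10 panels the Mbd3 KO, MBD2a and MBD2t points lie above all WT, MBD3a and MBD3ΔMBD points, and the MBD2aR181C points spread most widely for Nanog, from 1.42 to 58.7 CPM.

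The 9 libraries of Mbd3 KO, MBD2a and MBD2t were above the 9 libraries of WT, MBD3a and MBD3ΔMBD for 10 of 10 members, as they were for 18.8% of all genes tested. The MBD2t libraries in this count were of 1 clone. These 2 sets of lines were put together after their values were seen, so the separation is a description. The gap was narrow for Lin28a, whose lowest library of the first set was at 77.5 CPM and highest of the second at 64.5 CPM. It was wide for Zscan10, with 23.2 against 5.04 CPM, and for Tfcp2l1, with 46.4 against 13.8 CPM.

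Loss of MBD3 was compared with WT to ask how far the pluripotency genes remained on. All 10 members rose in Mbd3 KO, against 19.6% of all genes tested that were called higher (edgeR quasi-likelihood test, Benjamini-Hochberg adjusted p below 0.05 over all genes tested and an absolute log2 fold change above 1). Libraries of the lines did not overlap for 10 of 10 members and, in this direction, for 31.1% of all genes. The median log2 fold change was 3.08 over the members and -0.03 over all genes tested. Comparisons with WT below share its 3 libraries, as those with Mbd3 KO share the knock-out libraries.

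Among the core factors, the log2 fold change was 2.67 ± 0.78 (SE) for Pou5f1 (6.36-fold, adjusted p = 0.00645) and 3.04 ± 1.15 for Nanog (8.22-fold, adjusted p = 0.0288). The fitted changes of the naive factors were of like size. Zfp42, a zinc finger protein used as a marker of naive ESCs, went from 1.29, 3.52 and 19.7 CPM in WT to 158, 75.6 and 47.8 CPM in Mbd3 KO (log2 fold change 3.51 ± 0.95, adjusted p = 0.00375). Esrrb, an orphan nuclear receptor, went from 7.27, 7.57 and 10.9 CPM to 128, 65.3 and 32.0 CPM (3.13 ± 0.57, adjusted p = 0.000125). Its WT libraries were close together, unlike those of Nanog and Zfp42. Tfcp2l1, a grainyhead-like factor of the naive state, went from 3.41, 7.26 and 11.2 CPM to 91.1, 63.1 and 46.4 CPM (3.19 ± 0.57, adjusted p = 0.000106). Prdm14, a PR-domain repressor of DNA methyltransferase and FGF signalling genes, was the scarcest member. It had 5, 3 and 49 counts in the WT libraries and 246, 214 and 120 counts in those of Mbd3 KO (3.33 ± 0.79, adjusted p = 0.00133), and its WT values therefore carry a large counting error.

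Of the other nuclear proteins, Zscan10, a SCAN-domain zinc finger protein of ESCs, had the smallest adjusted p, with a rise from 2.74, 2.23 and 5.04 CPM to 45.0, 36.2 and 33.5 CPM (log2 fold change 3.51 ± 0.49, adjusted p = 8.95e-06). Utf1, a chromatin-associated protein of undifferentiated cells, went from 1.56, 2.86 and 6.99 CPM to 30.5, 19.8 and 15.0 CPM (2.50 ± 0.63, adjusted p = 0.00208). Sall4, a spalt zinc finger protein known to bind NuRD, and Lin28a, an RNA-binding protein that blocks let-7 maturation, moved least. Sall4 went from 29.9, 42.8 and 56.4 CPM to 228, 134 and 109.6 CPM (1.87 ± 0.42, adjusted p = 0.00095). Lin28a went from 27.0, 42.1 and 64.5 CPM to 173, 96.4 and 77.5 CPM (1.37 ± 0.48, adjusted p = 0.02). By mean level per length of exon both were the highest members in WT. The calls of Nanog and Lin28a rested on single libraries: 8 of 10 members were called without WT library 1, without WT library 2 or without Mbd3 KO library 1. The adjusted p was then 0.0918, 0.097 and 0.0986 for Nanog and 0.0842, 0.0509 and 0.118 for Lin28a. With only the 2 lines compared Nanog was also lost (adjusted p = 0.0623).

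Levels were also compared between members per kilobase of exon. In Mbd3 KO, Zfp42 was at 52.1 ± 31.9 CPM per kb (SD, n = 3), Pou5f1 at 48.3 ± 27.4 and Nanog at 42.9 ± 27.9. Lin28a followed at 33.0 ± 14.4 CPM per kb and Sall4 at 28.4 ± 11.3, and Prdm14 was lowest at 1.94 ± 0.757. The first 3 overlapped each other, so their order was not resolved. In WT the order of the means differed, with Lin28a at 12.7 ± 5.39 CPM per kb, Sall4 at 7.78 ± 2.39, Pou5f1 at 7.55 ± 8.32, Nanog at 5.17 ± 7.38 and Zfp42 at 4.53 ± 5.57. That order was not resolved either. In WT library 3 Lin28a was at 18.4, Pou5f1 at 17.1, Nanog at 13.7 and Sall4 at 10.2 CPM per kb.

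**Figure D2:**
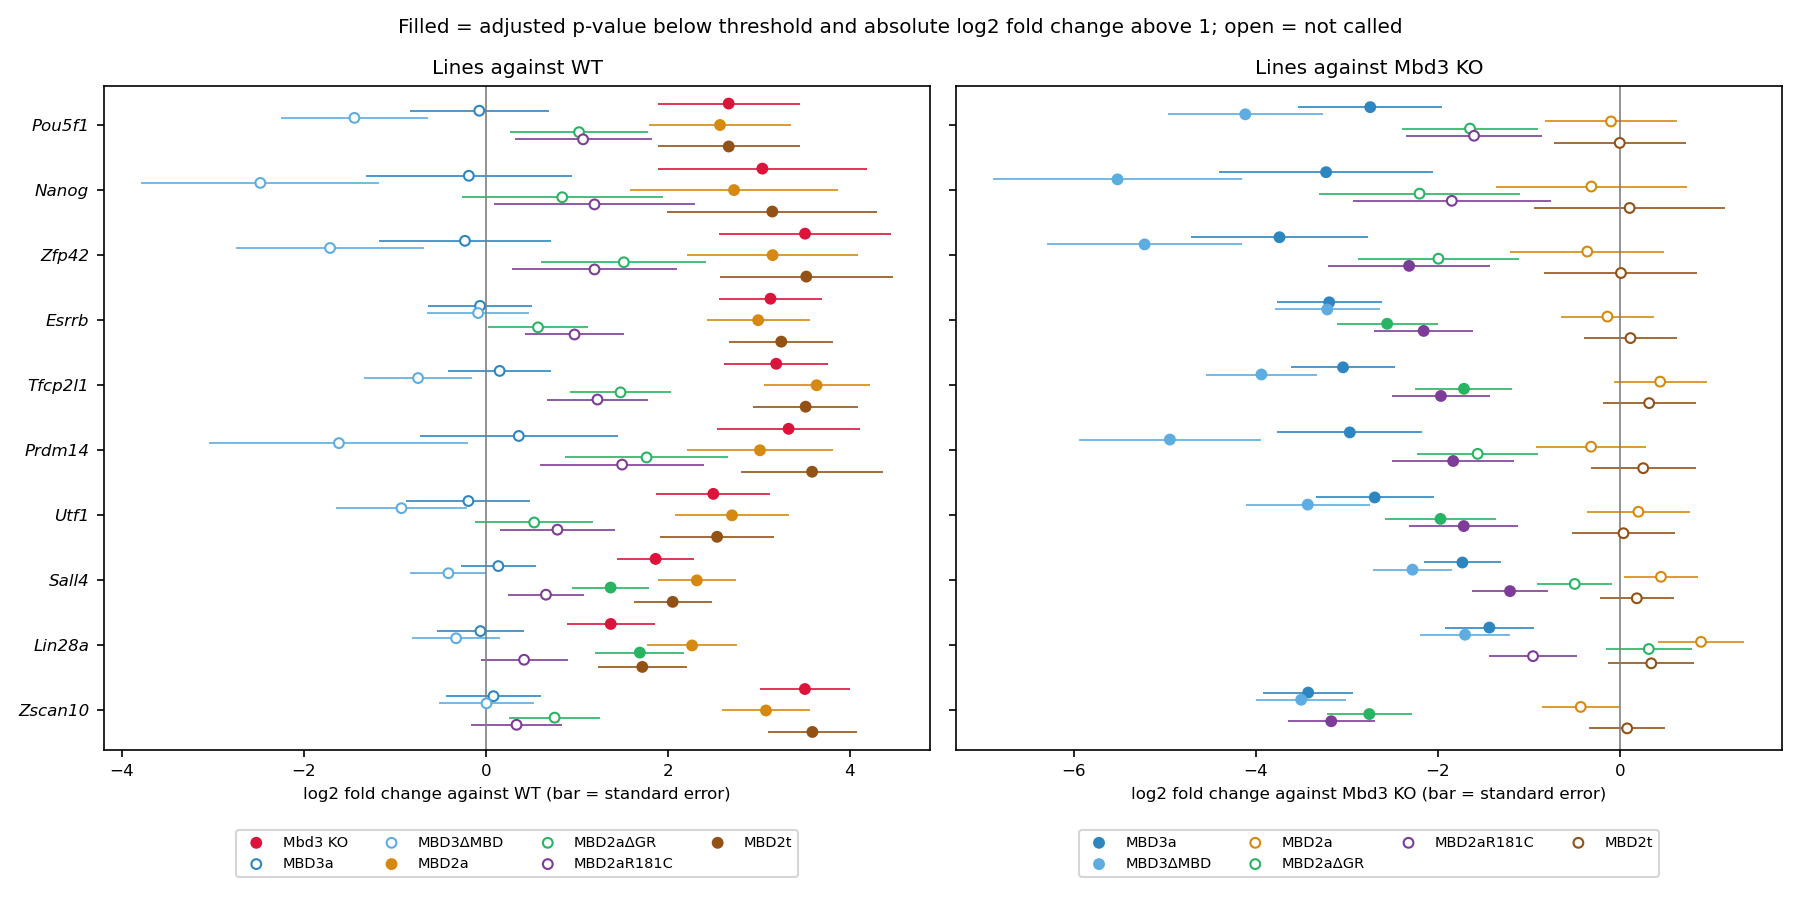
Log2 fold change of each gene with its standard error in each line against WT (left) and against Mbd3 KO (right), with filled points for called changes. Mbd3 KO, MBD2a and MBD2t points are filled for 10 of 10 genes on the left, and MBD3a and MBD3ΔMBD points for 10 of 10 genes on the right.

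Re-expression of MBD3 was read against both references. In MBD3a, 10 of 10 members were called lower than in Mbd3 KO, with 18.9% of all genes called lower, and in MBD3ΔMBD 10 of 10, with 20.9% of all genes called lower. Log2 fold changes against Mbd3 KO ran from -3.74 for Zfp42 to -1.43 for Lin28a in MBD3a, and from -5.52 for Nanog to -1.70 for Lin28a in MBD3ΔMBD. In MBD3a, 8 members were called without Mbd3 KO library 1, without MBD3a library 1 or without MBD3a library 3, and the calls of Nanog (adjusted p = 0.0842, 0.0847 and 0.0862) and Lin28a (adjusted p = 0.103, 0.0594 and 0.0514) were the ones lost.

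Against WT, no member was called in MBD3a, where 0% of all genes were called, and none in MBD3ΔMBD, where 0.0181% were called. Neither comparison had a member at an unadjusted p below 0.05 in edgeR, and DESeq2 called 0 in both. Log2 fold changes of MBD3a against WT lay between -0.23 (Zfp42) and 0.36 (Prdm14). Those of MBD3ΔMBD were below 0 for 9 of 10 members, with -2.48 ± 1.31 (SE) for Nanog, -1.71 ± 1.03 for Zfp42 and -1.44 ± 0.80 for Pou5f1. The libraries of MBD3ΔMBD overlapped those of WT for 10 of 10 members, while 11.7% of all genes had no overlap. With a standard error for Nanog of 1.13 in MBD3a and 1.31 in MBD3ΔMBD, a difference of 1 on the log2 scale was not detectable for that gene.

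In the libraries labelled MBD2a and in MBD2t the members were higher than in WT and were not resolved from Mbd3 KO. In MBD2a, 10 of 10 members were called higher than in WT (16.9% of all genes), with log2 fold changes from 2.27 for Lin28a to 3.64 for Tfcp2l1. In MBD2t, 10 of 10 were called higher than in WT (18.2% of all genes), from 1.72 for Lin28a to 3.59 for Zscan10. With the 3 repeats of the MBD2t clone summed to 1 sample, assumed to vary like the other lines, 9 members were called, Nanog (adjusted p = 0.0906) being lost. In both lines 9 members were called without WT library 1 or without WT library 2, and in MBD2a also without MBD2a library 2 or 3, Nanog being the one lost, with adjusted p between 0.0823 and 0.145. In MBD2a Nanog was lost too without a filter, under the older quasi-likelihood test, without MBD2t in the fit and with only the 2 lines compared (adjusted p from 0.056 to 0.0772). Against Mbd3 KO, 0 members were called in MBD2a, where 5.25% of all genes were called in either direction, and 0 in MBD2t, where 0.0241% were. No member reached an unadjusted p below 0.05 in edgeR in either comparison, and DESeq2 called 0 in both.

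Log2 differences from Mbd3 KO lay between -0.43 and 0.89 in MBD2a and between 0.00 and 0.35 in MBD2t, with standard errors up to 1.05. Lin28a was at 200.0, 249 and 195 CPM in MBD2a, above all Mbd3 KO libraries (log2 fold change 0.89 ± 0.48, SE, adjusted p = 0.285), and Zscan10 was at 23.2, 31.3 and 30.8 CPM, below all of them (-0.43 ± 0.42, adjusted p = 0.612). Libraries of the 2 lines did not overlap, in either direction, for 27.1% of all genes. Between MBD2t and MBD2a, 0 members were called (4% of all genes called), none at an unadjusted p below 0.05 in edgeR and 0 by DESeq2. Tfcp2l1 and Prdm14 lie on chromosome 1, of which 660 genes had a mean log2 CPM above 2. Each library was set against the mean of the other 2 libraries of its line. The median log2 deviation of these genes was -0.365 in Mbd3 KO library 1 and -0.419 in MBD2a library 3. It was 0.282 in Mbd3 KO library 3 and 0.205 in MBD2a library 1. Outside chromosome 1 of these 2 lines, the chromosomes of the members stayed between -0.114 and 0.0702. The part of this shift in the values of the 2 genes was not tested.

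The lines without the GR stretch or with the mutated MBD domain differed from the libraries labelled MBD2a in some members. The Mbd2 transcript was at 280 to 700.2 CPM in MBD2aΔGR and 253 to 325 CPM in MBD2aR181C. It was at 67.0 to 87.2 CPM in the libraries labelled MBD2a, so the altered domain and the transcript level cannot be told apart. These are RNA values of NPCs. The paper reported equal levels of MBD2a and MBD2aΔGR protein by Western blot in ESC lines. MBD2a was called higher than MBD2aΔGR for 4 of 10 members (10.6% of all genes): Esrrb (log2 fold change 2.42 ± 0.55, SE, adjusted p = 0.00252), Tfcp2l1 (2.16 ± 0.54, adjusted p = 0.00471), Utf1 (2.17 ± 0.61, adjusted p = 0.0101) and Zscan10 (2.32 ± 0.47, adjusted p = 0.000986). Libraries did not overlap for 9 of 10 members and for 19% of all genes in that direction, the exception being Lin28a. Without MBD2aΔGR library 3, 6 members were called, Sall4 (1.30, adjusted p = 0.0305) and Lin28a (1.37, adjusted p = 0.0261) being added. MBD2a was called higher than MBD2aR181C for 6 of 10 members (15.1% of all genes), namely these 4 with Sall4 (1.66 ± 0.42, adjusted p = 0.00314) and Lin28a (1.85 ± 0.49, adjusted p = 0.00433). Pou5f1 (1.50 ± 0.75, adjusted p = 0.0993) and Nanog (1.53 ± 1.08, adjusted p = 0.246) were not called. Without MBD2aR181C library 2, 9 members were called and Pou5f1 was at 2.50 (adjusted p = 0.0183), and without library 1 or 3 Utf1 missed the threshold (adjusted p = 0.053 and 0.0594), as it did with only the 2 lines compared (adjusted p = 0.0766).

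Relative to Mbd3 KO, 4 of 10 members were called lower in MBD2aΔGR (15.3% of all genes), again Esrrb, Tfcp2l1, Utf1 and Zscan10. Zscan10 changed most, from 45.0, 36.2 and 33.5 CPM in Mbd3 KO to 2.46, 6.02 and 8.48 CPM (log2 fold change -2.75 ± 0.47, SE, adjusted p = 0.000112). Lin28a was not lower: it was at 57.2, 109 and 266 CPM in MBD2aΔGR, and library 3 exceeded every library of every other line (0.32 ± 0.47, adjusted p = 0.604). The count fell to 2 without Mbd3 KO library 1 or without MBD2aΔGR library 1, when Tfcp2l1 (adjusted p = 0.0569 and 0.0541) and Utf1 (adjusted p = 0.0539 and 0.0532) missed the threshold. It rose to 5 without Mbd3 KO library 3, with Prdm14 added (adjusted p = 0.0458), or without MBD2aΔGR library 3, with Zfp42 added (adjusted p = 0.0444). In MBD2aR181C, 7 of 10 members were called lower than in Mbd3 KO (18.1% of all genes), all but Pou5f1, Nanog and Lin28a. Only 3 (Esrrb, Tfcp2l1 and Zscan10) were called without Mbd3 KO library 1, without MBD2aR181C library 1 or without MBD2aR181C library 3, 10 were without MBD2aR181C library 2, and 8 were without Mbd3 KO library 3, with Pou5f1 added (adjusted p = 0.0491). With only the 2 lines compared Esrrb, Tfcp2l1 and Zscan10 were the members called, and Prdm14 was lost with DESeq2 (adjusted p = 0.0798) and under the older quasi-likelihood test (adjusted p = 0.11).

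Relative to WT, 2 members were called higher in MBD2aΔGR, where 2.69% of all genes were: Sall4, at 61.6, 113 and 160 CPM (log2 fold change 1.37 ± 0.42, SE, adjusted p = 0.0483), and Lin28a (1.69 ± 0.49, adjusted p = 0.0399). Sall4 libraries did not overlap with WT, and Lin28a libraries did. Neither was called without WT library 1, without WT library 2 or without MBD2aΔGR library 3, and without MBD2aΔGR library 2 only Lin28a was. Both calls were also lost without MBD2t in the fit (adjusted p = 0.0839 for Sall4 and 0.0716 for Lin28a) and with only the 2 lines compared (adjusted p = 0.309 and 0.362), where 1 of 15327 genes was called higher. Without MBD2aΔGR library 3 the log2 fold change was 1.02 (adjusted p = 0.31) for Sall4 and 0.90 (adjusted p = 0.391) for Lin28a. Primitive endoderm is an extraembryonic cell type that arises beside the epiblast. In the same library 18 genes of this lineage summed to 26350 CPM, against 1906 and 1502 CPM in libraries 1 and 2 and 964 to 1239 CPM in WT. The sum was also above WT in Mbd3 KO (2089 to 3096 CPM) and MBD2t (1648 to 1760 CPM). In MBD2a it was 4796, 1148 and 5845 CPM. Of these 18 genes 16 were called higher in MBD2aΔGR than in WT (not Pdgfra and Sox7), none was below the 3-count level in every library, and their part in the Lin28a and Sall4 values was not tested. Of the 16 calls, 7 were left without MBD2t in the fit, 2 without WT library 2, and 0 with only the 2 lines compared, without WT library 1 or without MBD2aΔGR library 3, while DESeq2 called 17. In MBD2aR181C no member was called against WT (0.0181% of all genes). Tfcp2l1 alone had an unadjusted p below 0.05 in edgeR (1.23 ± 0.55, adjusted p = 0.999), and DESeq2 called 0. The fitted log2 fold change was nevertheless above 0 for 10 of 10 members in both lines, with a median of 1.20 in MBD2aΔGR and 1.02 in MBD2aR181C. WT, MBD2aΔGR and MBD2aR181C were thus not resolved for most members with 3 libraries each.

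Libraries of one line often differed widely in these genes. Outside MBD2t each clone gave 1 library, so clone and culture cannot be told apart. The median range between the libraries of WT was 1.93 on the log2 scale over the members and 0.55 over all genes tested, and the first was above the second in the other 7 lines too, MBD2t with its repeats of 1 clone included. Counting members whose highest library exceeded the lowest by more than 4-fold (log2 CPM with a prior count of 1), 5 of 10 did so in WT (5.95% of all genes), 2 in Mbd3 KO (4.99%), 3 in MBD3a (4.69%), 2 in MBD3ΔMBD (3.24%), 4 in MBD2aΔGR (8.94%) and 8 in MBD2aR181C (6.31%). In MBD2a (6.48%) and between the repeats of the MBD2t clone (0.488%) the count was 0. Nanog was in the count in 6 of these 8 lines, and its ratio of highest to lowest library was 38.1 in WT, 29.4 in MBD3a and 41.3 in MBD2aR181C. Zfp42 had ratios of 15.3 in WT, 7.02 in MBD3a and 15.0 in MBD2aR181C. Esrrb, Sall4, Lin28a and Zscan10 had ratios from 1.49 to 2.39 in WT. The width of the range thus differed between members of the same libraries.

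**Figure D3:**
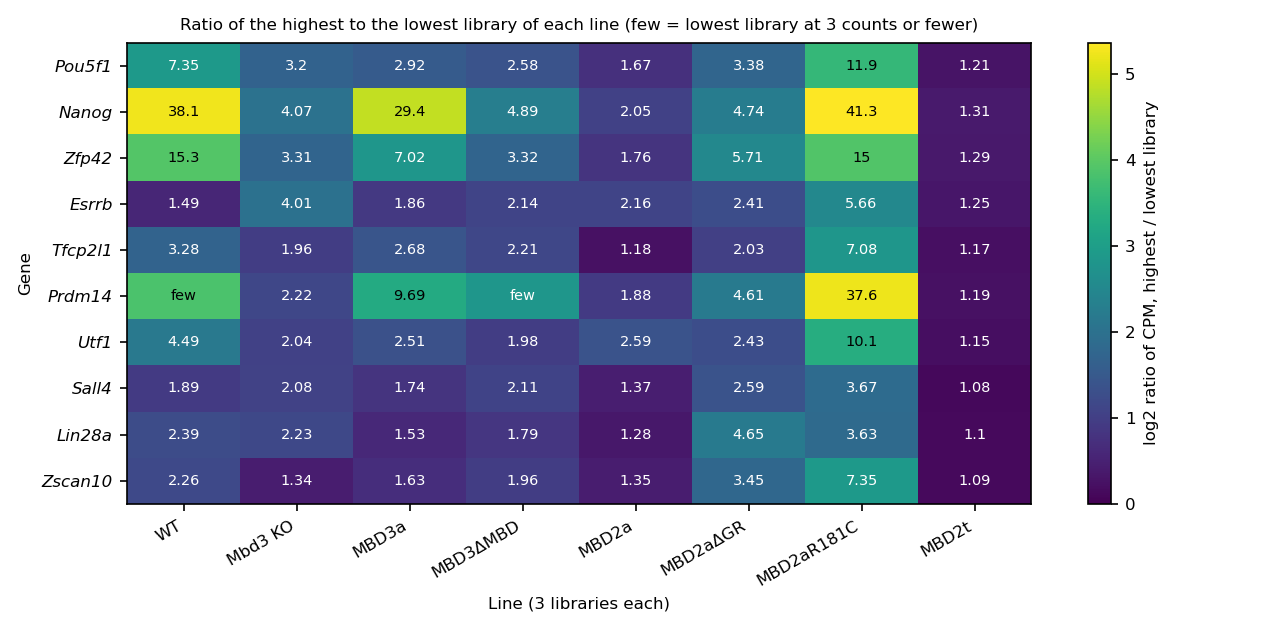
Ratio of the highest to the lowest CPM of the 3 libraries in each line (columns) for each gene (rows), coloured on a log2 scale, with cells whose lowest library held 3 counts or fewer marked as few. Nanog reaches 38.1 in WT and 41.3 in MBD2aR181C, whereas ratios in MBD2t stay between 1.08 and 1.31.

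Within 6 of the lines with separate clones the members were mostly highest in the same library. WT library 3 was the highest of its line for 10 of 10 members (44.7% of all genes), Mbd3 KO library 1 for 10 (43.1%), MBD3a library 2 for 10 (34%), MBD2aR181C library 2 for 10 (37.6%) and MBD3ΔMBD library 1 for 9 (35.8%), the exception being Esrrb. In MBD2aΔGR library 3 was highest for 7 members (41.6%) and library 2 for 3 (22.7%), and library 1 was lowest for 10. In MBD2a they were divided, with library 2 highest for 6 (29.7%) and library 3 for 4 (36.8%). Among the repeats of the MBD2t clone, library 1 was highest for 8 members and library 3 was lowest for 10. The shares of all genes for these repeats are not given here. Such agreement between members was thus also seen without a difference between clones. Members of one library share its cells and its scaling and are not independent of each other. As the median over members of the percentage of the Mbd3 KO mean, the WT libraries stood at 6.13%, 8.32% and 27.9%. Those of MBD3a stood at 8.52%, 25.1% and 8.75%, and those of MBD3ΔMBD at 10.1%, 5.60% and 5.66%. The MBD2aR181C libraries stood at 6.01%, 62.6% and 20.6%, those of MBD2aΔGR at 11.7%, 32.4% and 38.2%, and those of Mbd3 KO at 147%, 87.6% and 65.4%. MBD2a stood at 61.2%, 109.7% and 112%, and MBD2t at 119%, 110.5% and 98.3%. By this median, library 2 of MBD2aR181C was near the lowest MBD2a library, and library 1 near the lowest WT library. Single members of library 2 were not all at that MBD2a level. Zscan10 was at 8.42 against 23.2 CPM and Lin28a at 102 against 200.0 CPM in MBD2a library 1, whereas Nanog was at 58.7 against 46.1 CPM.

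The neural genes went the other way in the same libraries. In the 6 lines other than MBD2a and MBD2t, the library with the highest median of the members had the lowest summed level of the neural progenitor and neuron genes. In MBD2a libraries 2 and 3 had nearly the same median of the members, but library 2 had the highest neural sum of the line (721 CPM) and library 3 the lowest (392 CPM). The neural sum of WT was 6987, 6205 and 4202 CPM, and that of MBD2aR181C 7155, 3971 and 5992 CPM. It was 6289, 5107 and 5468 CPM in MBD3a and 5359, 3531 and 2299 CPM in MBD2aΔGR. Lines and clones were not exchangeable along this scale, though. MBD2aR181C library 2 kept a neural sum of 3971 CPM with a median of the members of 62.6%. MBD2a library 1 had a neural sum of 692 CPM with a median of the members of 61.2%. In these bulk samples fewer pluripotent cells and less RNA of these genes per cell cannot be told apart.

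**Figure D4:**
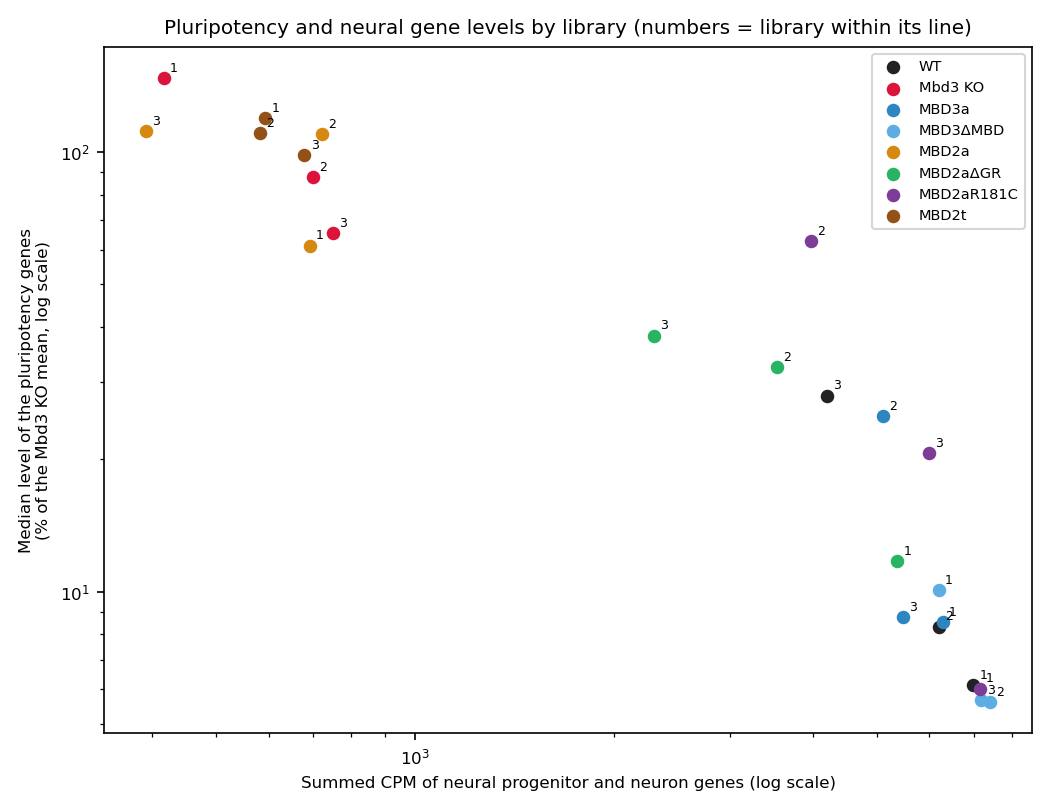
Median level of the 10 genes as a percentage of the Mbd3 KO mean (vertical, log axis) against the summed CPM of 24 neural progenitor and neuron genes (horizontal, log axis), 1 point per library coloured by line and numbered within its line. Libraries of Mbd3 KO, MBD2a and MBD2t lie at 750 CPM or less of neural genes, and MBD2aR181C library 2 combines 3971 CPM with 62.6%.

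The levels of members relative to each other differed between libraries, which shows in their ratios per kilobase of exon. Lin28a, which is also known from early neural progenitors, stood to Nanog as 21.4, 8.08 and 1.35 to 1 in WT, as 26.3, 1.37 and 5.05 in MBD3a and as 6.72, 18.3 and 18.5 in MBD3ΔMBD. In Mbd3 KO the ratio was 0.673, 0.732 and 1.23, and in MBD2t 0.861, 0.854 and 1.03. Libraries with low members mostly held more Lin28a relative to Nanog. Nanog is itself a member, and its highest library was 38.1 times its lowest in WT, against 2.39 for Lin28a. Such a ratio therefore largely restates the range of Nanog. MBD2aR181C spanned both ranges with 12.7, 1.11 and 1.53. MBD2aΔGR library 3, with 5.87, was the library with many Lin28a transcripts already described, and its ratio was that of library 1 (5.99) rather than of library 2 (2.53). Sall4 behaved similarly, with ratios to Nanog of 15.1, 5.21 and 0.745 in WT and of 0.563, 0.643 and 1.10 in Mbd3 KO. Esrrb was at 0.287 to 0.294 of Nanog in the Mbd3 KO libraries and at 3.35, 0.843 and 0.131 of it in those of WT, where Esrrb varied far less than Nanog.

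The genes whose profiles over the 24 libraries were nearest to each member were named by the root mean square difference of mean-centred log2 CPM. For Nanog these were Dppa5a (0.33), Dppa2 (0.37) and Calcoco2 (0.37), where the median over all genes was 2.56. Dppa2 and Dppa5a are ESC genes of the other pluripotency list. For Zfp42 they were Phf11d (0.32), Klf2 (0.33) and Aqp3 (0.33), and for Prdm14 Klf2 (0.48), Aqp3 (0.48) and Eif4e1b (0.51). Klf2 is a Krüppel-like factor of naive ESCs. Pou5f1 was nearest to Tle6 (0.25), Mobp (0.26) and Zfp981 (0.30), and Utf1 also to Tle6 (0.28), with H2-Bl (0.33) and Trim6 (0.33). Esrrb was nearest to Il17rc (0.37) and Acap1 (0.40), and Tfcp2l1 to B3gnt7 (0.29), Gbp4 (0.34) and Gm14124 (0.35). Sall4 was nearest to Pqlc3 (0.23), Frrs1 (0.23) and Jade1 (0.23), and Zscan10 to Gm5424 (0.34), Ass1 (0.37) and Abcb1b (0.37). Lin28a, with Mreg (0.24), Baiap2l1 (0.26) and Sall4 (0.26), was the only gene with another member among its 3 nearest.

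Of 35 other pluripotency genes tested, 23 rose and 4 fell in Mbd3 KO against WT, where 19.6% of all genes rose and 14.2% fell, with a median log2 fold change of 2.01. Dnmt3l, a cofactor of de novo DNA methylation, rose by 4.73 ± 0.99 (log2, SE), Tdgf1, a Nodal co-receptor, by 4.53 ± 0.67, and L1td1, an RNA-binding protein of ESCs, by 3.79 ± 0.95. Foxd3 (-5.20 ± 0.88), Mycn (-1.94 ± 0.18), Gbx2 (-1.33 ± 0.39) and Sox2 (-1.03 ± 0.30) fell, and these genes are known to act in neural crest or neural progenitors as well. Sox2, the partner of OCT4, was at 264 to 277 CPM in WT and 64.5 to 218 CPM in Mbd3 KO. Against WT, 22 genes of the list rose in MBD2a, 21 in MBD2t and 4 in MBD2aΔGR (Klf4, Tdh, Spp1 and Lifr, named after their values were seen), where DESeq2 called 6. These calls went to 0 with only the 2 lines compared and without WT library 1, WT library 2 or MBD2aΔGR library 3, and to 7 without WT library 3 and 8 without MBD2aΔGR library 1. The median log2 fold change of the list was -0.11 in MBD3a, -0.73 in MBD3ΔMBD and 0.75 in MBD2aR181C.

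The listed relatives of the members went mostly down. They were a selection chosen with earlier results of these data known, and do not cover whole gene families. Grhl2, a grainyhead factor that rose, was not among them. Of 17 paralogues tested, 10 fell (14.2% of all genes) and 1 rose (19.6%) in Mbd3 KO, with a median log2 fold change of -1.58. The neural POU factors Pou3f4 (-7.05 ± 0.64, SE) and Pou3f3 (-6.00 ± 0.52) fell while Pou5f1 rose, and Prdm12, a sensory neuron regulator (-5.25 ± 0.78), fell while Prdm14 rose. Sall3 (-3.95 ± 0.50) and Sall2 (-1.92 ± 0.37) fell while Sall4 rose, and Lin28b (-1.71 ± 0.36) fell while Lin28a rose. Lin28b was at 33.7 to 43.6 CPM in WT and 4.55 to 15.4 CPM in Mbd3 KO. Esrrg (-3.37 ± 0.60) fell, and Esrra (0.69 ± 0.15) was below the fold-change threshold. Prdm1, a regulator of germ cell fate, was the one that rose (1.21 ± 0.33).

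Genes of the formative and primed epiblast, the stage between naive pluripotency and germ layers, were mixed: 7 of 15 fell in Mbd3 KO, against 14.2% of all genes, and 3 rose, a share at the 19.6% of all genes that did. Grhl2 (2.47 ± 0.36, SE), an epithelial grainyhead factor, and Dnmt3b (1.39 ± 0.25), a de novo DNA methyltransferase, rose, as did Fgf5, named after its value was seen. Sox3 (-3.91 ± 0.27), Sfrp2 (-3.35 ± 0.40) and Cdh2 (-3.11 ± 0.57), which neural progenitors also express, fell. Otx2 stayed low, at 2.14 to 3.71 CPM in WT and 1.72 to 2.72 CPM in Mbd3 KO. In all 8 lines, the library with the highest median of the members had the lowest sum of this list. These include MBD2t with its repeats of 1 clone, and MBD2a, where the medians of libraries 2 and 3 were nearly the same. Sox3 is also in the neural list, so this sum is not independent of the neural sum. Of the neural list, 23 of 24 genes (all but Lhx2) fell in Mbd3 KO, against 14.2% of all genes, among them Neurod4 (-7.56 ± 0.64), Msx3 (-7.44 ± 0.58) and Fabp7 (-7.12 ± 0.62).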

How the data were processed

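Poly(A) RNA-seq counts of 24 NPC libraries were used, and 6 ChIP samples were not analysed here. The authors trimmed reads with Trim Galore, aligned them with STAR to mm9 and deposited one table of raw counts per gene from qCount of QuasR with GENCODE annotation, and the columns name the line but carry no replicate number. The columns of the MBD2aR181C line give its point mutation another position number, and they were taken as that line because it is the only MBD2a point mutant among the RNA-seq labels. Counts were filtered by line (filterByExpr, 16582 of 25400 genes), scaled by TMM and tested with edgeR 4.0.16 (R 4.3.3) by the quasi-likelihood F test in one fit of all 24 libraries with line as the only factor. The standard error is the log2 fold change divided by the root of F. Alternatives were DESeq2 1.42.0, other scalings, filters and sample sets, and leaving out each library. Scripts were tested on simulated counts. Exon lengths and positions came from the same annotation. Members and gene lists were chosen with earlier results of these data known. All 10 members were named in every comparison. From each list the 3 called genes with the largest rise and fall in Mbd3 KO and a mean log2 CPM of at least 1 were named, and further genes (Sox2, Lin28b, Otx2 and other paralogues) were chosen after their values were seen. A few genes that this rule selects are not reported here. Replicate libraries differed beyond sampling noise and none was counted as a copy.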

Additional observations from a re-analysis of the deposited data

How the results depend on the processing

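Of 73 called changes of members, tried under 1168 alternatives in all, the direction held in each, 1105 stayed called and 63 were no longer past the threshold. Taking library totals in place of TMM moved the median of all genes by up to -0.178 on the log2 scale (MBD3ΔMBD against Mbd3 KO) and reversed no called member. Members called in MBD2aΔGR against WT (2) were 1 under upper-quartile scaling, without a filter and under the older quasi-likelihood test, which was added after seeing the data, and 0 without MBD2t in the fit or with only the 2 lines compared. Members called in MBD2aR181C against Mbd3 KO (7) were 3 with only the 2 lines compared. Primitive endoderm genes called in Mbd3 KO against WT (4) were 7 with DESeq2 and 10 with only the 2 lines compared. In MBD2aΔGR against WT, alternatives added after seeing the data left 7 of 16 primitive endoderm genes called without MBD2t in the fit and 0 with only the 2 lines compared, and 0 of 4 other pluripotency genes with only the 2 lines compared. The cause was not tested. Leaving out 1 library gave 0 to 2 members called in MBD2aΔGR against WT, 2 to 5 in MBD2aΔGR and 3 to 10 in MBD2aR181C against Mbd3 KO, 8 to 10 in Mbd3 KO against WT and in MBD3a against Mbd3 KO, 9 to 10 in MBD2a and MBD2t against WT, 4 to 6 and 5 to 9 in MBD2a against MBD2aΔGR and MBD2aR181C, and the same count as with all libraries in the others, and there were 0 to 17 primitive endoderm and 0 to 8 other pluripotency genes called in MBD2aΔGR against WT. MBD2t repeats summed to 1 sample, also added, gave 9 members called against WT and 0 against Mbd3 KO and MBD2a. No paired analysis was possible because the deposited columns carry no replicate number. Depth limited Prdm14, which held 2 to 49 counts per library in WT, MBD3a and MBD3ΔMBD.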

Other observations

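Lists of other lineages were read in the same libraries, against 19.6% of all genes called higher and 14.2% called lower in Mbd3 KO than in WT. Of 14 trophoblast genes 12 were called higher and 1 lower in Mbd3 KO than in WT, with Esx1 up by 5.29 ± 0.55 (log2, SE), Hand1 by 5.28 ± 0.80 and Plac1 by 4.11 ± 0.85, while Tfap2a, also a neural crest factor, was lower (-3.32 ± 0.59). Summed over the list, WT libraries held 222 to 372 CPM, those of Mbd3 KO 1946 to 2555 CPM and those of MBD2t 1675 to 1849 CPM. In MBD2a it was 632, 631 and 2277 CPM, so library 3 stood with the knock-out libraries and the others did not, although the members were at 61.2%, 109.7% and 112% of the Mbd3 KO mean in these libraries. Of 14 germ cell genes tested 7 were higher, led by Sohlh1, a germ cell transcription factor, up by 8.13 ± 0.41, with 0.378 to 0.659 CPM in the WT line and 125 to 144 CPM in the knock-out. Sohlh1 was at 8.40 to 15.6 CPM in MBD2a and at 95.4 to 167 CPM in MBD2t. Of 12 mesoderm genes tested 2 were higher (T and Mixl1) and 2 lower (Twist1 -2.13 ± 0.46 and Acta2 -1.41 ± 0.55), and of 18 primitive endoderm genes 4 were higher, among them Lamb1 (1.84 ± 0.67), Foxa2 (1.46 ± 0.55) and Amn. Shares in these last lists were near those of all genes. T, Mixl1 and Amn were named after their values were seen.

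Genes of the two-cell-like state, a rare condition of ESC cultures marked by the Zscan4 cluster, varied between libraries of a line with the members. Of 16 listed genes 10 were in the table and 9 were tested, with a median log2 fold change of -1.29 in Mbd3 KO against WT. In 7 of 8 lines, all but MBD2t with its repeats of 1 clone, their sum was highest in the library with the highest median of the members. It was 8.75, 26.1 and 247 CPM in WT, 14.8, 166 and 42.2 CPM in MBD3a, 27.0, 421 and 197 CPM in MBD2aR181C and 133, 69.9 and 49.9 CPM in Mbd3 KO. The sum in MBD2aR181C library 2 was above that of every other library. Zscan4 copies are nearly identical, so the counts of single genes are uncertain, and these sums are values from the same libraries as the members without a test.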
